A study of Oryza sativa Japonica Group with 49 samples.

Results

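The genes described here are 10 MADS-box transcription factor genes of rice floral organs, read as gene models of the MSU annotation in RNA-seq count tables that list 55986 gene models. The members were chosen by name and identifier: OsMADS2 (LOC_Os01g66030), OsMADS4 (LOC_Os05g34940), OsMADS16 (LOC_Os06g49840), OsMADS3 (LOC_Os01g10504), OsMADS58 (LOC_Os05g11414), OsMADS13 (LOC_Os12g10540), OsMADS1 (LOC_Os03g11614), OsMADS7 (LOC_Os08g41950), OsMADS8 (LOC_Os09g32948) and OsMADS6 (LOC_Os02g45770). Their identifiers place them on 8 chromosomes, and their coordinates and sequences were not used here. The main question was how high these genes are in the panicle, the flower-bearing branch system of rice, and whether their transcripts change there under heat.

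The stress experiment held 19 libraries of japonica rice without a transgene. These were panicles of the variety Zhonghua 11 (ZH11) under heat (2 libraries) and normal conditions (2), ZH11 seedlings under heat (3), drought (3) and normal conditions (3), and seedlings of the variety Dongjin (DJ) under drought (3) and normal conditions (3). The line experiment held 12 libraries of seedlings: onac023, a T-DNA insertion mutant of the NAC transcription factor gene ONAC023 in the DJ background, against DJ-WT, the wild-type plants that segregated from a heterozygous parent, with 3 libraries per line under drought and 3 under heat. Seedlings were treated at the 4-leaf stage. The labels give 45 °C for 6 h as heat and 7 d without water, to under 10% soil water, as drought, and repeat this text for panicles. For seedling RNA, the study's methods give a longer heat and a shorter drought than the labels, so the exact times are uncertain. They also describe heat at flowering with a lower temperature and fewer hours a day, and do not say which treatment these panicles had.

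Floral organ identity in grasses is set by MADS-box proteins that bind DNA as multimers, in combinations that differ between the whorls of the floret. B-class genes act with C-class genes to make stamens and, without them, lodicules, the small organs that open the grass flower. C-class genes specify stamens and carpels and end the growth of the floral meristem, D-class genes act in the ovule, and the E-class (SEPALLATA-like) and AGL6-like proteins join these complexes in most whorls.

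Total counts per library, in units of 1000000 counts, ranged from 39.8 to 132, with 126 and 132 in heat panicles and 95.2 and 93.9 in normal panicles. Levels are given as normalised CPM, which are counts divided by the library size and multiplied by 1000000, after TMM scaling within an experiment (a scaling that sets the bulk of genes equal). Counts of different genes depend on transcript length, which was not used here, so levels are compared between libraries and not between genes. Heat shock protein genes, picked here by their descriptions in the study's table of genes that differed in onac023 and so not independent of the line libraries, took 11.1% and 5.30% of all counts in the heat panicles, against 0.0723% and 0.0699% in the normal panicles, and 17 of these 21 genes rose there (median log2 fold change 8.62). The chlorophyll a/b binding genes, which are expressed in green tissue, were picked from the same table. They held 0.842% to 0.996% of the counts in heat panicles and 0.876% to 1.12% in normal panicles, against 0.548% to 0.804% in normal ZH11 seedlings. Of these 3 genes, 1 was called higher and 1 lower in normal panicles than in normal seedlings, with log2 fold changes from -1.27 to 2.81. The list therefore did not set seedlings apart from panicles. Replicate numbers come from the labels, which do not say that the ZH11 and DJ samples came from separate plants, and p-values measure the spread between these libraries only.

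All 10 genes were far higher in ZH11 panicles than in ZH11 seedlings under normal conditions. In edgeR's quasi-likelihood test over 26693 genes, where a gene was called at a fold change over 2 with an adjusted p under 0.05, 10 of 10 were called higher, against a background of 33.8% of genes called higher and 24.3% called lower. Genes at or near 0 in seedlings passed the filter on low counts through the panicle libraries alone, so that this count is a description of the list. With genes at 0 set to their lower bound, the median log2 ratio of the 10 genes was 7.59, against 0.17 for the log2 fold change of all genes tested. The 2 tissues also differ in age and growth conditions, and a tissue with fewer cells of a type cannot be told apart from one with less RNA per cell in bulk samples.

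**Figure D1:**
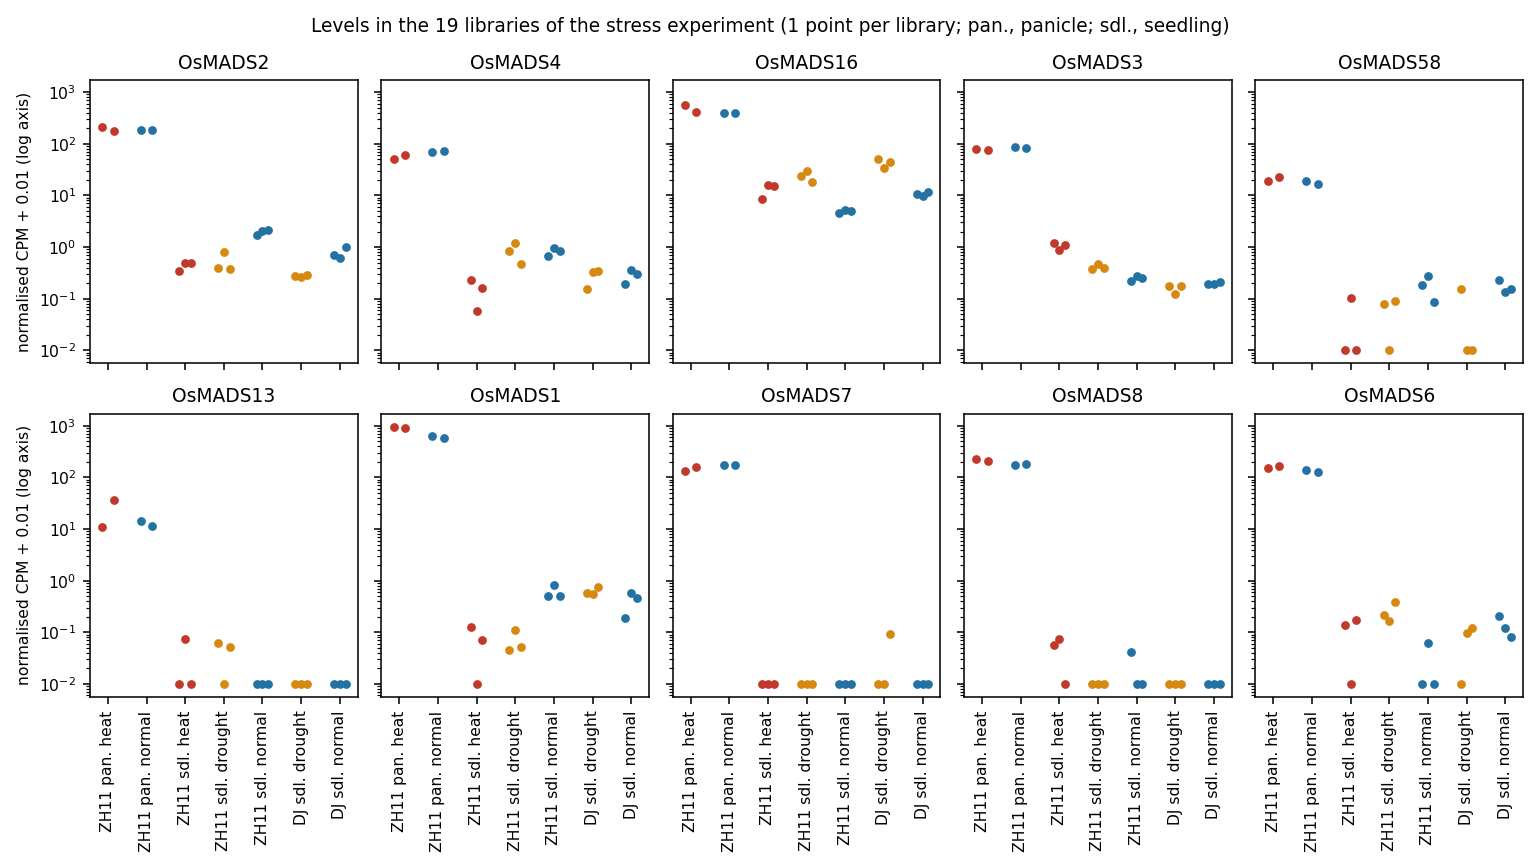
Level of each gene in the 19 libraries of the stress experiment, as normalised CPM plus 0.01 on a log axis, with 1 point per library (pan., panicle; sdl., seedling; red, heat; orange, drought; blue, normal). In each panel the 4 panicle points lie above all 15 seedling points, and points at 0.01 are libraries with a count of 0; OsMADS16 has the highest seedling points, up to 49.8 CPM.

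Among the B-class genes, OsMADS2, one of a pair of PISTILLATA-like genes, had 184 and 187 CPM in normal panicles, against 1.73, 2.06 and 2.10 CPM in normal seedlings (log2 fold change 6.63, SE 0.10, adjusted p = 6.0e-07 in edgeR). OsMADS4, its paralog, had 70.2 and 72.5 CPM in panicles, against 0.672, 0.957 and 0.845 CPM in seedlings (log2 fold change 6.51, SE 0.13). OsMADS16, the APETALA3-like gene also known as SUPERWOMAN1, had 395 and 396 CPM in panicles, against 4.54, 5.29 and 5.07 CPM in seedlings (log2 fold change 6.38, SE 0.10). OsMADS16 therefore kept a clear signal in seedlings, with 403 to 534 counts per library, and had the smallest panicle excess of the genes for which more than a bound can be given.

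In the C class, OsMADS3, a gene of stamen identity, had 85.2 and 82.7 CPM in normal panicles, against 0.206, 0.262 and 0.237 CPM in normal seedlings (log2 fold change 8.55, SE 0.10). OsMADS58, its paralog, which is known for its part in ending floral meristem growth, had 18.6 and 16.7 CPM in panicles and 8 to 20 counts per seedling library, or 0.0759 to 0.262 CPM (log2 fold change 6.81, SE 0.35). The D-class gene OsMADS13, which is needed for ovule identity, had 14.3 and 11.4 CPM in panicles and a count of 0 in each of the 3 seedling libraries, so that it was at least 81.7-fold higher in panicles with a floor of 3 read pairs in each library.

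The E-class gene OsMADS1, known as LEAFY HULL STERILE1 for its role in the lemma and palea that enclose the floret, had 632 and 590 CPM in normal panicles, against 0.488, 0.813 and 0.494 CPM in normal seedlings (log2 fold change 10.1, SE 0.22). OsMADS7 had 172 and 175 CPM in panicles and a count of 0 in all 3 seedling libraries, which makes it at least 1101-fold higher in panicles. OsMADS8, the close paralog of OsMADS7, had 175 and 178 CPM in panicles and 3, 0 and 0 counts in seedlings. That is about 1 sequenced read pair, for a ratio of 12108 (95% exact Poisson interval 2173 to 478230, counting error only). OsMADS6, an AGL6-like gene that acts in the palea and in floral meristem fate, had 138 and 126 CPM in panicles and 0, 4 and 0 counts in seedlings, a ratio of 9035 with an interval of 1622 to 356874. OsMADS7, OsMADS8, OsMADS6 and OsMADS13 were thus at or under the floor in each normal ZH11 seedling library.

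In panicles, the 10 genes had fold changes between 0.781 (OsMADS4) and 1.83 (OsMADS13) under heat against normal conditions. In edgeR's test over 27238 genes, 0 of 10 were called, against a background of 10.3% of genes called in either direction. At an unadjusted p under 0.05 there was 1 of 10, OsMADS1, beside 8736 of all 27238 genes. DESeq2 also called 0, although OsMADS1 had an adjusted p of 0.00735 there with a fold change under 2. The median log2 fold change of the 10 genes was 0.25, against 0.00 for all genes tested, with 7 values above 0 and 3 below. The ranges of the 2 heat and the 2 normal libraries did not overlap for 8 of the 10 genes, 5 with heat above and 3 with heat below, but the same held for 69.5% of the 19719 genes with at least 100 counts in each panicle library. A p that misses the threshold with 2 libraries a group does not show that a level was unchanged, and the 95% intervals of the fold change are therefore given for each gene.

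**Figure D2:**
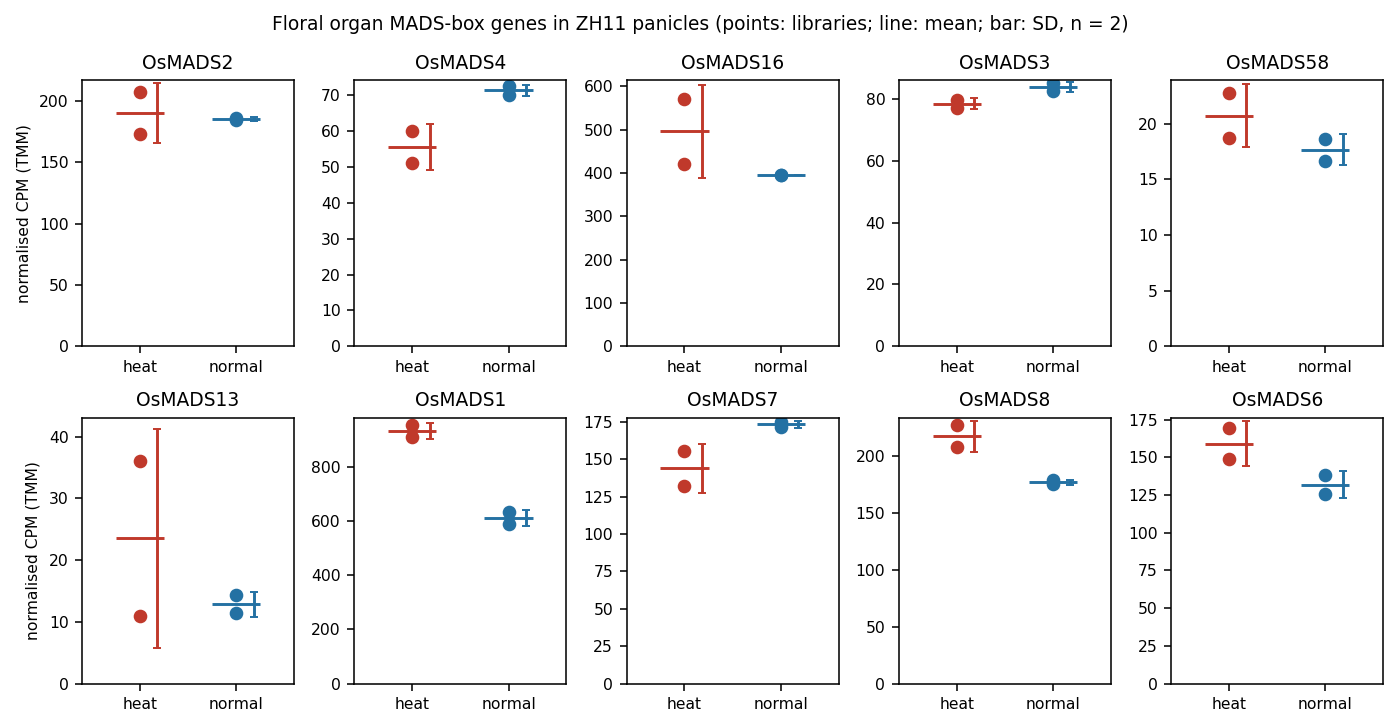
Normalised CPM of each gene in ZH11 panicles, with heat (red, left) beside normal conditions (blue, right); points are the 2 libraries of a group, the line is their mean and the bar their SD, and each axis starts at 0. OsMADS1 lies higher in both heat libraries (955 and 912 CPM, against 632 and 590 CPM), and the heat libraries of OsMADS13 are far apart (10.95 and 36.1 CPM).

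Of the B-class genes, OsMADS2 had 208 and 173 CPM in heat panicles, against 184 and 187 CPM in normal panicles. Heat lay on both sides of the normal values, and the fold change of 1.03 had an interval of 0.758 to 1.40 (adjusted p = 0.887 in edgeR). OsMADS4 had 51.0 and 60.2 CPM in heat panicles, against 70.2 and 72.5 CPM in normal panicles. It was the gene with the lowest fold change of the 10, at 0.781 (interval 0.592 to 1.03, adjusted p = 0.191), although both heat libraries were under both normal ones. OsMADS16 had 572 and 420 CPM in heat panicles, against 395 and 396 CPM in normal panicles. Here the heat libraries differed from each other by more than the lower of them differed from the normal libraries (fold change 1.26, interval 0.849 to 1.87, adjusted p = 0.355).

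Of the C-class genes, OsMADS3 had 79.9 and 77.3 CPM in heat panicles, against 85.2 and 82.7 CPM in normal panicles. Its fold change of 0.938 (interval 0.730 to 1.21, adjusted p = 0.691) was, after OsMADS2, the closest to 1 of the 10. OsMADS58 had 18.7 and 22.7 CPM in heat panicles, against 18.6 and 16.7 CPM in normal panicles (fold change 1.18, interval 0.866 to 1.60, adjusted p = 0.398).

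The D-class gene OsMADS13 was the least certain of the 10. It had 10.95 and 36.1 CPM in heat panicles, against 14.3 and 11.4 CPM in normal panicles, so that heat replicate 2 was above and heat replicate 1 below both normal libraries. The log2 ratio of heat replicate 2 to replicate 1 was 1.72, and 0.869% of the 21182 genes with at least 100 counts in both heat libraries had a larger difference in either direction. The log2 fold change was 0.87 (SE 0.54, fold change 1.83, interval 0.707 to 4.76, adjusted p = 0.320). Without heat replicate 1 it was 1.50 and was called (adjusted p = 0.0391), and without heat replicate 2 it was -0.22 (adjusted p = 0.470). The 2 heat libraries also differed as a whole, as the middle 50% of genes had log2 ratios of replicate 2 to replicate 1 between -0.28 and 0.32 under heat, against -0.16 and 0.14 under normal conditions, and as heat shock genes took a larger share in heat replicate 1. What part this has in the OsMADS13 values was not tested.

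Of the E-class and AGL6-like genes, OsMADS1 had 955 and 912 CPM in heat panicles, against 632 and 590 CPM in normal panicles. This was the largest difference of the 10 relative to its error (log2 fold change 0.61, SE 0.20, fold change 1.53, interval 1.08 to 2.17), with both heat libraries above both normal ones. It did not pass after adjustment over all genes in the main edgeR fit (adjusted p = 0.109) or in edgeR with total counts as library sizes (0.625). In DESeq2 the adjusted p was 0.00735, so the tools differed. None of 11 alternatives gave a fold over 2. OsMADS7 had 132 and 155 CPM in heat panicles, against 172 and 175 CPM in normal panicles (fold change 0.832, interval 0.622 to 1.11, adjusted p = 0.325). OsMADS8, in contrast, had 227 and 207 CPM in heat panicles, against 175 and 178 CPM in normal panicles (fold change 1.23, interval 0.928 to 1.63, adjusted p = 0.260). OsMADS6 had 149 and 169 CPM in heat panicles, against 138 and 126 CPM in normal panicles (fold change 1.21, interval 0.906 to 1.61, adjusted p = 0.306). Each of these last 3 genes had heat and normal libraries that did not overlap, and none of the 3 intervals excluded 1.

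**Figure D3:**
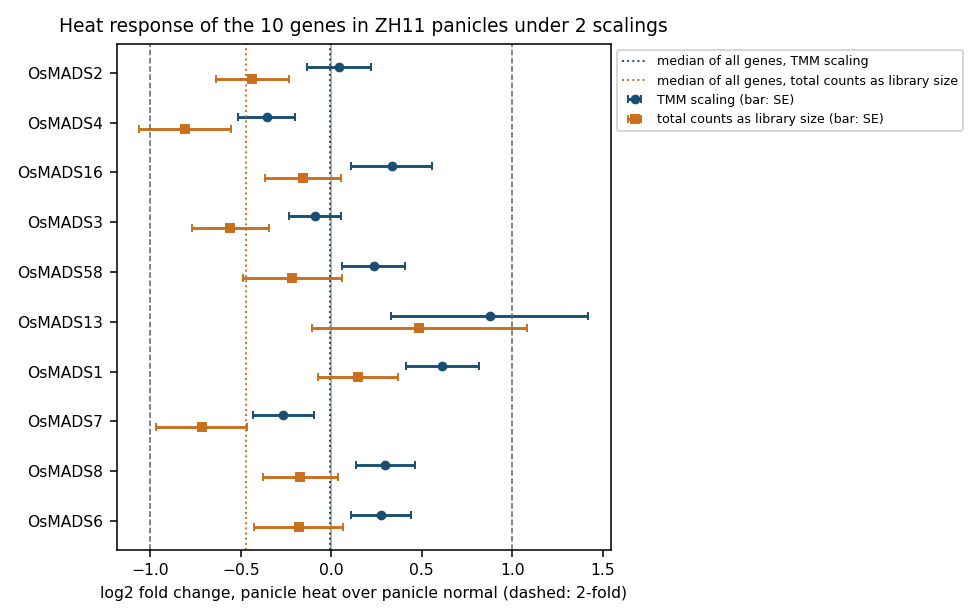
Log2 fold change of each gene between heat and normal ZH11 panicles, with the SE as a bar, under TMM scaling (blue circles) and with total counts as library sizes (orange squares); dotted lines are the medians of all genes under each scaling (0.00 and -0.47) and dashed lines mark a 2-fold change. All values lie within the 2-fold lines, and the second scaling moves each gene to the left with the median.

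These signs depend on the scaling of library sizes. With total counts as library sizes, a setting added after the data were seen, the median log2 fold change of all genes was -0.47 and the values of OsMADS2 (-0.44), OsMADS6 (-0.18), OsMADS8 (-0.17), OsMADS16 (-0.15) and OsMADS58 (-0.22) turned negative, while OsMADS1 (0.15) and OsMADS13 (0.49) stayed above 0. Again 0 of 10 were called, beside 3377 of all 27238 genes. Of all genes called, 83.5% were higher under TMM scaling and 56.5% with total counts.

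Ratios of paralogs within a library do not depend on that scaling. The log2 ratio of OsMADS7 to OsMADS8 counts was -0.78 and -0.42 in heat panicles, against -0.03 and -0.03 in normal panicles. Both heat libraries were thus shifted toward OsMADS8, by 0.57 on average. The log2 ratio of OsMADS2 to OsMADS4 was 2.02 and 1.52 in heat panicles, against 1.39 and 1.36 in normal panicles, so that both heat libraries were shifted toward OsMADS2. For OsMADS3 to OsMADS58 it was 2.09 and 1.77 in heat panicles, against 2.19 and 2.31 in normal panicles. In each of the 3 pairs the heat libraries lay on the same side of the normal ones, but they also differed more from each other than the normal libraries did. Such separation is common here, as 69.5% of single genes had no overlap between these groups. The share of all gene pairs that separate was not computed. With 2 libraries a group, the smallest p of an exact permutation test is 0.333.

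Other MADS-box genes gave a background for these results. Of 11 further gene models of the floral clades (such as the APETALA1-like and other SEPALLATA-like genes), 9 were higher and 1 was lower in panicles than in seedlings under normal conditions. Over all genes tested, 33.8% were called higher and 24.3% lower. The median log2 fold change of these gene models was 7.17. Of 11 gene models of clades that act in flowering time or in vegetative tissue, 9 were tested. Beside the same shares, 1 was higher and 5 were lower in panicles (median -1.36). Under heat in panicles, edgeR called 0 of 10 floral-clade and 0 of 9 flowering-time and vegetative gene models tested, beside 10.3% of all genes. Their log2 fold changes ran from -0.47 to 1.67 (median 0.57) and from -2.10 to 1.47 (median 0.22). In lists this short, 0 calls are close to the share over all genes. These counts, and that of the 10 genes, therefore do not set MADS-box genes apart under heat.

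The 5 other gene models whose pattern over the 19 libraries was most like the mean of the 10 genes were LOC_Os07g15320, LOC_Os01g41140, LOC_Os11g31820, LOC_Os10g18400 and LOC_Os01g70440 (Pearson's r 0.998 to 0.999 on log2 CPM). Each had a count of 0 in all 15 seedling libraries of this experiment. The highest of them in normal panicles, LOC_Os01g70440, had 588 and 613 CPM in heat panicles, against 1180 and 1060 CPM in normal panicles. The first of them by r, LOC_Os07g15320, had only 0.257 and 0.245 CPM in heat panicles, against 0.254 and 0.225 CPM in normal panicles. Pearson's r compares the pattern and not the level. Likeness here mostly means presence in panicles and absence in seedlings, as 846 of 27228 gene models had an r over 0.9. Of the 10 genes themselves, OsMADS7 was closest to the mean (r = 0.996) and OsMADS16, with its seedling signal, the furthest from it (r = 0.896).

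In seedlings, where these genes are low, OsMADS16 was the member with enough counts for a firm comparison, and it rose under each stress. It had 8.41, 16.1 and 15.05 CPM in ZH11 seedlings under heat and 23.3, 29.7 and 18.2 CPM under drought, against 4.54, 5.29 and 5.07 CPM under normal conditions. No stressed ZH11 library overlapped a normal one (heat: log2 fold change 1.42, SE 0.27, adjusted p = 0.00331; drought: 2.25, SE 0.18, adjusted p = 6.9e-05, both in edgeR). DJ seedlings gave the same picture, with 49.8, 34.1 and 44.3 CPM under drought, against 10.6, 9.71 and 11.6 CPM under normal conditions (log2 fold change 2.16, SE 0.16, adjusted p = 1.9e-06). The drought response of OsMADS16 differed between DJ and ZH11 by -0.07 on the log2 scale (SE 0.25, adjusted p = 0.823). All 13 alternatives of each of these 3 comparisons kept the call. Even in DJ under drought the highest library reached 49.8 CPM, under the 420 to 572 CPM of heat panicles and the 395 to 396 CPM of normal panicles.

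**Figure D4:**
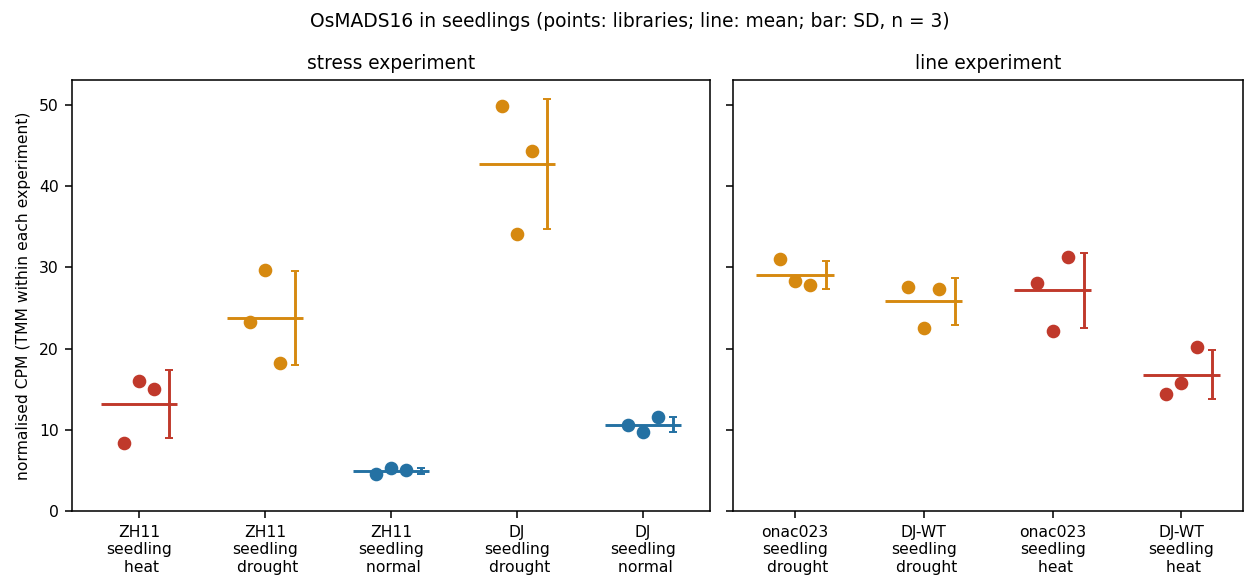
Normalised CPM of OsMADS16 in seedlings of the stress experiment (left) and the line experiment (right), with points for libraries, a line for the mean and a bar for the SD (n = 3 per group); the axis starts at 0 and TMM scaling was done within each experiment. In the stress experiment the stressed libraries (8.41 to 49.8 CPM) lie above the normal libraries of their own variety.

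The other B-class genes went the opposite way in ZH11 seedlings under heat. In the test of heat against normal conditions, 5 of the 10 genes passed the filter on low counts, of which 2 rose and 3 fell, against a background of 31.4% of 25216 genes called higher and 24.5% called lower. OsMADS2 had 0.337, 0.490 and 0.480 CPM in seedlings under heat, against 1.73, 2.06 and 2.10 CPM under normal conditions (log2 fold change -2.16, SE 0.32, adjusted p = 0.000979). OsMADS4 had 0.221, 0.0474 and 0.150 CPM under heat, against 0.672, 0.957 and 0.845 CPM (log2 fold change -2.53, SE 0.58, adjusted p = 0.00705). The heat libraries of both genes lay under all normal ones. OsMADS1 had 10, 0 and 4 counts under heat, against 45, 62 and 52 counts under normal conditions (log2 fold change -3.26, SE 0.90, adjusted p = 0.0149). Its call was lost without normal replicate 2 (adjusted p = 0.0595) or heat replicate 3 (adjusted p = 0.0540). OsMADS3, in contrast, rose with 104, 56 and 73 counts under heat, against 19, 20 and 25 counts under normal conditions (log2 fold change 2.18, SE 0.36, adjusted p = 0.00163). All of these values are a small part of the panicle levels, and 21 of 21 heat shock protein genes rose in the same comparison.

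The heat response of panicles was set against that of seedlings in 1 fit. For 5 of the 10 genes the difference (panicle minus seedling) had an adjusted p under 0.05, beside 48.7% of the 29005 genes tested. It was 3.76 for OsMADS1 (SE 0.68), 2.16 for OsMADS2 (SE 0.26) and 2.08 for OsMADS4 (SE 0.46), which fell in seedlings but were not called in panicles. It was -2.33 for OsMADS3 (SE 0.21) and -1.14 for OsMADS16 (SE 0.39), which rose in seedlings. OsMADS6, OsMADS7, OsMADS8, OsMADS13 and OsMADS58 were under the filter on low counts in the seedling test of heat. They were tested here only because the panicle libraries were in the fit. With few or no counts in seedlings, they give no usable difference, and the count of 5 of 10 is a description of the list.

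Under drought, ZH11 seedlings had 6 of the 10 genes above the filter, of which 2 rose and 2 fell, beside 26.2% of 24797 genes called higher and 16.9% called lower. Besides OsMADS16, OsMADS6 rose, with 12, 11 and 18 counts under drought, against 0, 4 and 0 counts under normal conditions (log2 fold change 3.86, SE 1.13, adjusted p = 0.0202 in edgeR). These are a few read pairs. The call was lost without drought replicate 1 or 3 or normal replicate 1 or 3 (adjusted p 0.0519 to 0.0649). OsMADS1 fell to 2, 7 and 2 counts under drought, against 45, 62 and 52 counts (log2 fold change -3.26, SE 0.56, adjusted p = 0.00200). OsMADS2 fell to 0.387, 0.799 and 0.370 CPM, against 1.73, 2.06 and 2.10 CPM (log2 fold change -1.91, SE 0.37, adjusted p = 0.00335). OsMADS4 had 0.826, 1.21 and 0.452 CPM under drought, against 0.672, 0.957 and 0.845 CPM, and OsMADS3 had 0.369, 0.450 and 0.391 CPM, against 0.206, 0.262 and 0.237 CPM. Neither was called, though OsMADS3 was with total counts as library sizes (log2 fold change 1.21, adjusted p = 0.0227). The most frequent low value was 2 under drought and 4 under normal conditions in ZH11, so that 1 read pair stood for a different number of counts, and this cannot be told apart from drought for genes with few counts.

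In DJ seedlings, 4 of the 10 genes passed the filter, of which 1 rose and 1 fell under drought, beside 25.2% of 24257 genes called higher and 29.1% called lower. OsMADS16 rose, as described, and OsMADS2 fell to 0.262, 0.257 and 0.274 CPM under drought, against 0.701, 0.608 and 0.997 CPM under normal conditions (log2 fold change -1.38, SE 0.37, adjusted p = 0.00765). OsMADS2 thus fell in each of the 3 stress comparisons of seedlings, and OsMADS16 rose in each, although heat and drought in ZH11 share the normal libraries. OsMADS1 had 24, 19 and 27 counts in DJ under drought, against 9, 41 and 25 counts (log2 fold change 0.75, SE 0.45, adjusted p = 0.149), where the groups overlapped. Its drought response in DJ differed from that in ZH11 by 4.03 on the log2 scale (SE 0.74, adjusted p = 0.000533), and that of OsMADS6 by -4.65 (SE 1.55, adjusted p = 0.0197). These were 2 of the 6 members tested, beside 64.8% of 25754 genes. OsMADS6 had 0, 3 and 4 counts in DJ under drought, against 10, 8 and 4 under normal conditions, and was under the filter of the DJ comparison. For genes with few counts, these differences cannot be told apart from the other count unit of the normal ZH11 libraries. The chlorophyll a/b binding genes fell with drought in both varieties, 3 of 3 in DJ (median log2 fold change -5.24) and 2 of 3 in ZH11 (median -2.74), and their part in these results was not tested.

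**Figure D5:**
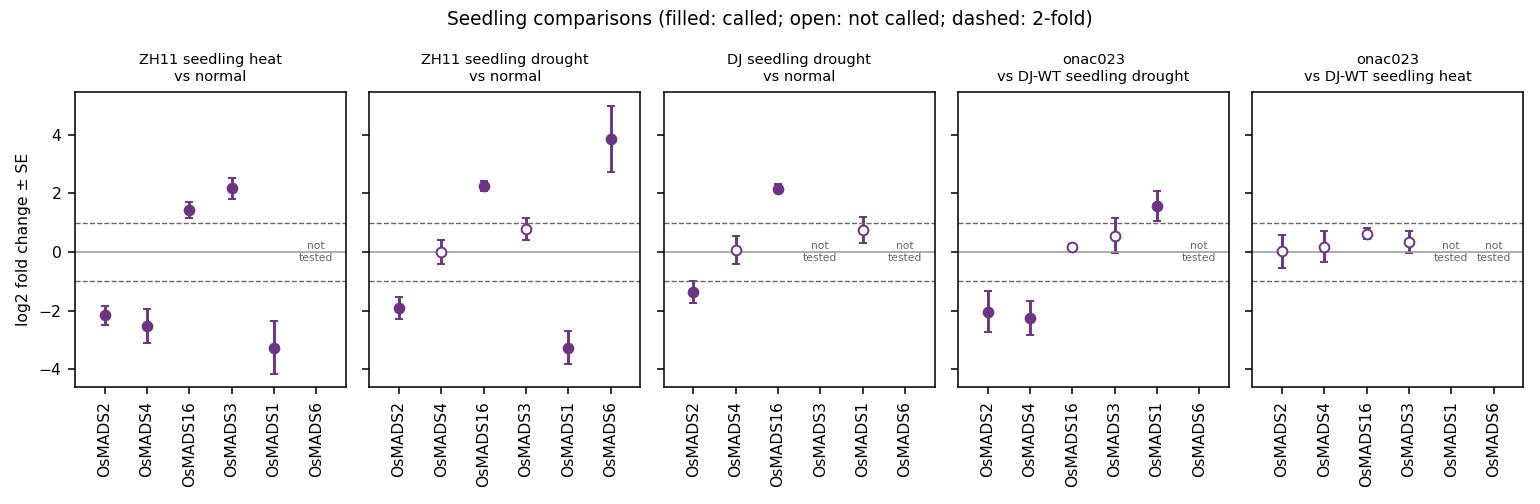
Log2 fold change with its SE for the 6 genes tested in at least 1 seedling comparison (filled, called; open, not called; dashed lines, 2-fold). OsMADS2 lies below the lower dashed line in 4 of the 5 comparisons, and OsMADS16 lies above the upper one in each stress comparison but in neither comparison of the lines.

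The line experiment asked which genes depend on ONAC023. ONAC023 (LOC_Os02g12310) had 6, 4 and 9 counts in onac023 and 257, 222 and 65 in DJ-WT under drought, and 0, 2 and 0 counts in onac023 and 105, 126 and 180 in DJ-WT under heat, as the labels imply. The genes expressed in the lines were also set against those that separate the varieties in the stress experiment. Of 36 genes found at 1 CPM or more in each ZH11 and at 0.1 CPM or less in each DJ seedling library of the stress experiment, 19 to 23 had at least 0.5 CPM in the onac023 drought libraries, against 36 in each of the 3 DJ-WT drought libraries. In the heat libraries these numbers were 19 to 21 in onac023, against 35 to 36 in DJ-WT. Of 51 genes found in DJ but not in ZH11 by the same limits, 49 to 51 reached 0.5 CPM in onac023 and 48 to 50 in DJ-WT under drought, and 43 to 47 in onac023 and 39 to 40 in DJ-WT under heat. Nearly all genes of either kind were thus present in DJ-WT under drought, although the labels place both lines in DJ. A difference between the lines therefore cannot be told apart from any other difference between their genomes.

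Under drought, 5 of the 10 genes were tested between the lines. In onac023, 1 was higher and 2 were lower than in DJ-WT, beside 7.21% of 24273 genes called higher and 18.1% called lower. OsMADS1 had 21, 25 and 19 counts in onac023, against 10, 5 and 18 counts in DJ-WT (log2 fold change 1.56, SE 0.50, adjusted p = 0.0271 in edgeR), and its call was lost without any library but DJ-WT replicate 3 (adjusted p 0.0599 to 0.0959). OsMADS2 had 6, 0 and 6 counts in onac023, against 22, 23 and 30 counts in DJ-WT (log2 fold change -2.04, SE 0.70, adjusted p = 0.0339). That call was lost without DJ-WT replicate 2 or 3 or onac023 replicate 1 or 3 (adjusted p 0.0666 to 0.0962). OsMADS4 had 5, 4 and 6 counts in onac023, against 28, 63 and 18 counts in DJ-WT (log2 fold change -2.25, SE 0.59, adjusted p = 0.0110), and all 6 fits without a library kept the call. With 1 read pair worth about 2 counts, the onac023 values of OsMADS2 and OsMADS4 are 0 to 3 read pairs, and with counts scaled to read pairs both genes fell under the filter. All 12 libraries of the line experiment were under drought or heat, so no untreated level of the lines can be given. For comparison, DJ seedlings of the stress experiment, whose libraries were scaled separately, had 11, 9 and 10 counts of OsMADS2 and 6, 11 and 12 of OsMADS4 under drought. The chlorophyll a/b binding genes were lower in onac023 under drought as well, 3 of 3 (median log2 fold change -2.74). They were picked from the study's table of genes that differed between these lines, so this count is not independent evidence. Their part in these results was not tested.

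OsMADS16 had 31.0, 28.3 and 27.8 CPM in onac023 under drought, against 27.6, 22.5 and 27.3 CPM in DJ-WT (fold change 1.13, interval 0.960 to 1.32, adjusted p = 0.170). Under heat it had 28.1, 22.2 and 31.2 CPM in onac023, against 14.4, 15.8 and 20.2 CPM in DJ-WT. The heat groups did not overlap, and the fold change was 1.55 with an interval of 1.13 to 2.13 (adjusted p = 0.0638 in edgeR, and 0.0411 in DESeq2), under the 2-fold rule in both tools. The main edgeR fit did not pair the libraries, and over 13 alternatives the adjusted p ran from 0.00721 to 0.405. Of the 4 genes tested by edgeR under heat, 0 were called, beside 11.3% of 23459 genes. DESeq2 called 0 of the 9 it fitted, but gave no adjusted p for OsMADS8 and OsMADS13 among these. In edgeR, 1 of the 4, OsMADS16, had an unadjusted p under 0.05, beside 7916 of all genes tested. The difference between the lines under drought minus that under heat had an adjusted p under 0.05 for 1 of 5 members tested, OsMADS4 (-2.49, SE 0.81, adjusted p = 0.0321), beside 34.0% of 25773 genes. OsMADS7, OsMADS8, OsMADS13, OsMADS6 and OsMADS58 had at most 14 counts in any library of this experiment and were not tested in the main edgeR fits.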

How the data were processed

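RNA-seq was analysed in 31 libraries; the 18 ChIP libraries of the series were not analysed here. The paper and the submitters' processing notes both name StringTie and DESeq2, but the paper names STAR as the aligner (after fastp, to the MSU rice assembly) and the notes name HISAT2. The authors deposited 1 table per experiment with an estimated count for each gene model and library, as whole numbers that were not normalised. The counting tool and its strand setting are not given in the sources used here. Low values peaked at 4 in 10 libraries but at 2 in 21, so that 1 read pair stands for more than 1 count. A floor of 3 read pairs per library was used. Poisson intervals and floors cover counting error only. 0 columns of values were left unused.

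The main test was the quasi-likelihood test of edgeR 4.0.16 (R 4.3.3) after TMM scaling and filterByExpr. Each fit held only the groups compared, with Benjamini-Hochberg adjustment over all genes tested. The study's thresholds defined a call (over 2-fold, adjusted p under 0.05). SE is the log2 fold change over the square root of F, and 95% intervals use the test's degrees of freedom. Alternatives were RLE scaling, total counts as library sizes (added after seeing the data), DESeq2 1.42.0, no filter, the replicate number as a block, counts scaled to read pairs, all libraries of a table in 1 fit, and each library left out. The edgeR step was tested on simulated data. Same-numbered libraries deviated together only between onac023 and DJ-WT under heat (correlations 0.384, 0.331 and 0.114). There the labels' numbers were taken as pairs, but only in the replicate block, as the main fits held no block. Levels and figures used Python 3.11.15. All 10 members and the 5 genes most like their mean are named. The members, lists and comparisons were chosen with earlier results of these data known. Levels per coding length were planned and not run, since transcript lengths were not used here.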

Additional observations from a re-analysis of the deposited data

Results flagged for a closer look

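The responses of some genes differed between tissues, varieties or stresses by the test of the difference itself (adjusted p under 0.05 over all genes in edgeR). For heat, panicle minus seedling in ZH11, the log2 differences were 3.76 for OsMADS1, 2.16 for OsMADS2, -2.33 for OsMADS3, 2.08 for OsMADS4 and -1.14 for OsMADS16. For drought, DJ minus ZH11 seedlings, they were 4.03 for OsMADS1 and -4.65 for OsMADS6. These came from at most 62 counts of OsMADS1 and 18 of OsMADS6 in any of these libraries. The most frequent low value was 4 in normal ZH11 seedlings and 2 in the other groups, which cannot be told apart from a variety difference at such counts. For onac023 minus DJ-WT, drought minus heat, it was -2.49 for OsMADS4, from at most 63 counts in any library. No group had enough libraries for a check of single outlying libraries.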

How the results depend on the processing

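The count of members called higher in panicles than in seedlings (10), and the calls of OsMADS16, OsMADS2, OsMADS3 and OsMADS4 in ZH11 seedlings under heat, of OsMADS16, OsMADS1 and OsMADS2 in ZH11 seedlings under drought, and of OsMADS16 and OsMADS2 in DJ, held under each alternative that could test them. For heat in panicles, 2793 genes were called in the main analysis and 4482 by DESeq2, and 1311 to 4508 with 1 library left out (1311 without heat replicate 1, 4508 without heat replicate 2), with 0 to 1 members higher. OsMADS2 had log2 fold changes from -0.093 (without heat replicate 1) to 0.18 and OsMADS13 from -0.22 to 1.50 over these fits. With total counts as library sizes, OsMADS2 (-0.44), OsMADS6 (-0.18), OsMADS8 (-0.17), OsMADS16 (-0.15) and OsMADS58 (-0.22) turned negative there, and OsMADS16 between the lines under drought was -0.20. For drought in ZH11 seedlings, the members higher were 1 in place of 2 with no filter, with the replicate block and with counts scaled to read pairs, and 1 to 2 with a library left out. Between the lines under drought, the members higher were 0 in place of 1 with total counts, with the replicate block and with all libraries in 1 fit, and 0 to 1 with a library left out. The members lower there were 1 in place of 2 with the replicate block, 0 with counts scaled to read pairs, where they were under the filter, and 1 to 2 with a library left out. Between the lines under heat, 2647 genes were called, against 4193 with total counts and 1469 to 3311 with a library left out (1469 without DJ-WT replicate 3, 1581 without onac023 replicate 1, 1630 without onac023 replicate 3).

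Where the numbers do not pair the libraries, the replicate block took the calls of OsMADS1 in ZH11 seedlings under heat (adjusted p = 0.0526), OsMADS6 under drought (0.0618), and OsMADS1 (0.0525) and OsMADS2 (0.0555) between the lines under drought. For heat in panicles it gave 4006 genes called and 0 members. Where the numbers pair the libraries (lines under heat), it gave 3042 genes and changed no member's call. The share of higher calls with total counts, beside TMM, was 68.7% beside 58.2% (panicle against seedling), 76.4% beside 60.8% (ZH11 drought), 30.2% beside 46.4% (DJ drought), 8.43% beside 28.4% (lines, drought) and 4.58% beside 19.9% (lines, heat). The median log2 fold change of all genes moved to 0.61, 0.51, -0.68, -0.46 and -0.41 in these 5 comparisons. The cause of these changes was not tested. With 2 panicle libraries a group, small differences were not detectable, and the floor is 12 counts in ZH11 seedlings under heat and normal conditions and 6 counts in the other seedling libraries.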
